A study of Mus musculus with 9 samples.

Results

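The genes described here encode voltage-gated calcium channel subunits: the pore-forming alpha1 subunits Cacna1a, Cacna1b, Cacna1c and Cacna1d, the alpha2delta subunits Cacna2d1, Cacna2d2 and Cacna2d3, and the beta subunits Cacnb3 and Cacnb4. They were taken as every probe set of the Affymetrix Mouse 430 2.0 array that the platform annotation gives to 1 of these symbols alone. Of the 9 genes, 8 had such a probe set, among 18193 genes so annotated. Their 24 probe sets stand among 45037 that are not controls. The signal of Cacnb3 was not analysed here. There were 3 arrays of motor neurons from SOD1-mutant mice, 3 of motor neurons from wild-type mice and 3 of total spinal cord from wild-type mice. The motor neurons were obtained by laser capture microdissection, in which a laser cuts chosen cells from a section. SOD1 is a cytosolic superoxide dismutase whose mutation causes an inherited form of amyotrophic lateral sclerosis. The labels do not name the mutant allele, the strain, an age or a treatment, unless a code shared by all titles, which they leave unexplained, stands for one. Nor do they say how motor neurons were recognised, how many cells went into an array, or whether arrays share an animal, so p-values speak only of the spread among these arrays, part of which may be technical. Cord of SOD1-mutant mice was not analysed here. The descriptions call the cord samples total cord, although another label names its ventral part for all 9 arrays.

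A voltage-gated calcium channel opens when the membrane is depolarised and lets calcium enter the cell. The alpha1 subunit forms the pore and sets the channel type, while the extracellular alpha2delta subunit and the intracellular beta subunit carry the channel to the membrane and tune its gating. In motor neurons, calcium entry through P/Q-type channels triggers acetylcholine release at the neuromuscular junction, N-type channels serve release at many central synapses, and L-type channels carry persistent inward currents in the dendrites.

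The values were linear signals scaled by the authors to a trimmed mean of 2500 on every array. A change is a difference of log2(signal + 20.3), so that changes of dim probe sets are understated, and a probe set is said to have changed where limma's adjusted p was under 0.05. Of the 24 probe sets, 18 passed the filter on dim probe sets and were tested among 27022. The 6 others belonged to Cacna2d1 (2 probe sets) and to Cacna1a, Cacna1b, Cacna1d and Cacna2d2 (1 each). The brightest probe set of a gene, that of the highest mean log2 value, stands for the gene below. Signals of different probe sets are not on 1 scale, so levels were compared between groups only.

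Captured motor neurons differed from cord in opposite directions at the accessory subunits. Cacna2d3 was 4.15-fold and Cacna2d2 1.85-fold higher in wild-type motor neurons than in cord, whereas Cacna2d1 was 7.58-fold and Cacnb4 2.03-fold lower. The rise of Cacna2d2 rests on its brightest probe set, and the call of Cacnb4 was lost when each array was centred on its median. Of the pore subunits, the N-type gene Cacna1b was 3.90-fold lower in wild-type motor neurons and the L-type gene Cacna1d 1.73-fold higher. The brightest probe sets of Cacna1a and Cacna1c did not pass the test. Between SOD1-mutant and wild-type motor neurons, none of the 18 probe sets passed. The widest difference there was at Cacna2d1, 2.14-fold higher in the mutant at its brightest probe set with an adjusted p of 0.134.

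On the arrays as a whole, the median signal was 274 to 366 in SOD1-mutant motor neurons, 269 to 313 in those of wild-type mice, and 556 to 583 in cord. For the Gapdh control transcript, the 3′ signal exceeded the 5′ signal on the log2 scale by 4.33 to 4.63 in SOD1-mutant motor neurons, by 3.65 to 4.52 in wild-type motor neurons and by -0.29 to -0.26 in cord. For Actb the differences were 4.66 to 5.84, 4.17 to 4.97 and 0.64 to 0.69 in the same groups. These values separate every captured array from every cord array, so the loss of 5′ signal and the tissue cannot be told apart at any channel gene. The labels were checked against 8 marker lists. All 11 measured motor neuron markers were above background on every array and 10 were higher in wild-type motor neurons than in cord, with 0 lower. The lists for oligodendrocytes (9 of 9), astrocytes (6 of 7), microglia (9 of 9), vessels and meninges (7 of 7), inhibitory neurons (6 of 6) and excitatory and dorsal neurons (6 of 6) were lower, and no muscle marker was tested. These counts were made under the authors' scaling alone. Glial signal remained in captured cells. The oligodendrocyte markers summed to 274789.9 to 285919 in wild-type motor neurons, against 578462 to 679314 in cord. The astrocyte markers summed to 132947 to 145085, against 314767 to 351598. The brightest members weigh most in these sums, and the members differed in the size of their change. S100b (mean signal 64289 in wild-type motor neurons) did not pass against cord, and Aldoc (57294) was 1.77-fold lower. Agt was 39.3-fold and Gfap 15.1-fold lower. Of the oligodendrocyte markers, Mbp (115170) was 1.25-fold lower, while Mag was 11.7-fold and Mog 8.07-fold lower. Sod1 had signals of 84714 to 131987 in SOD1-mutant motor neurons, 96983 to 101398 in those of wild-type mice, and 45081 to 49249 in cord, so the signal did not separate the 2 genotypes. The labels do not say how the mutation is carried, so this gene does not check them.

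Motor neurons of wild-type mice were first compared with cord of wild-type mice. Of the 18 channel probe sets, 3 were higher, 9 were lower and 6 did not pass, against 7 higher and 5 lower after quantile normalization and 8 higher and 4 lower after centring each array on its median. Over all 27022 probe sets, 65.5% passed (24.0% higher and 41.5% lower), so most probe sets passed in this comparison and the share among the channel genes was near that background. After quantile normalization 9647 of all were higher and 7691 lower, and after centring 12942 and 5269. The arrays did not overlap at 14 of the 18 (3 higher and 11 lower), against 71.9% of all probe sets tested (26.4% higher and 45.4% lower). The median log2 change was -0.73 over the 18 and -0.35 over all probe sets. In a bulk sample, fewer cells of a type and less RNA per cell cannot be told apart.

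**Figure D1:**
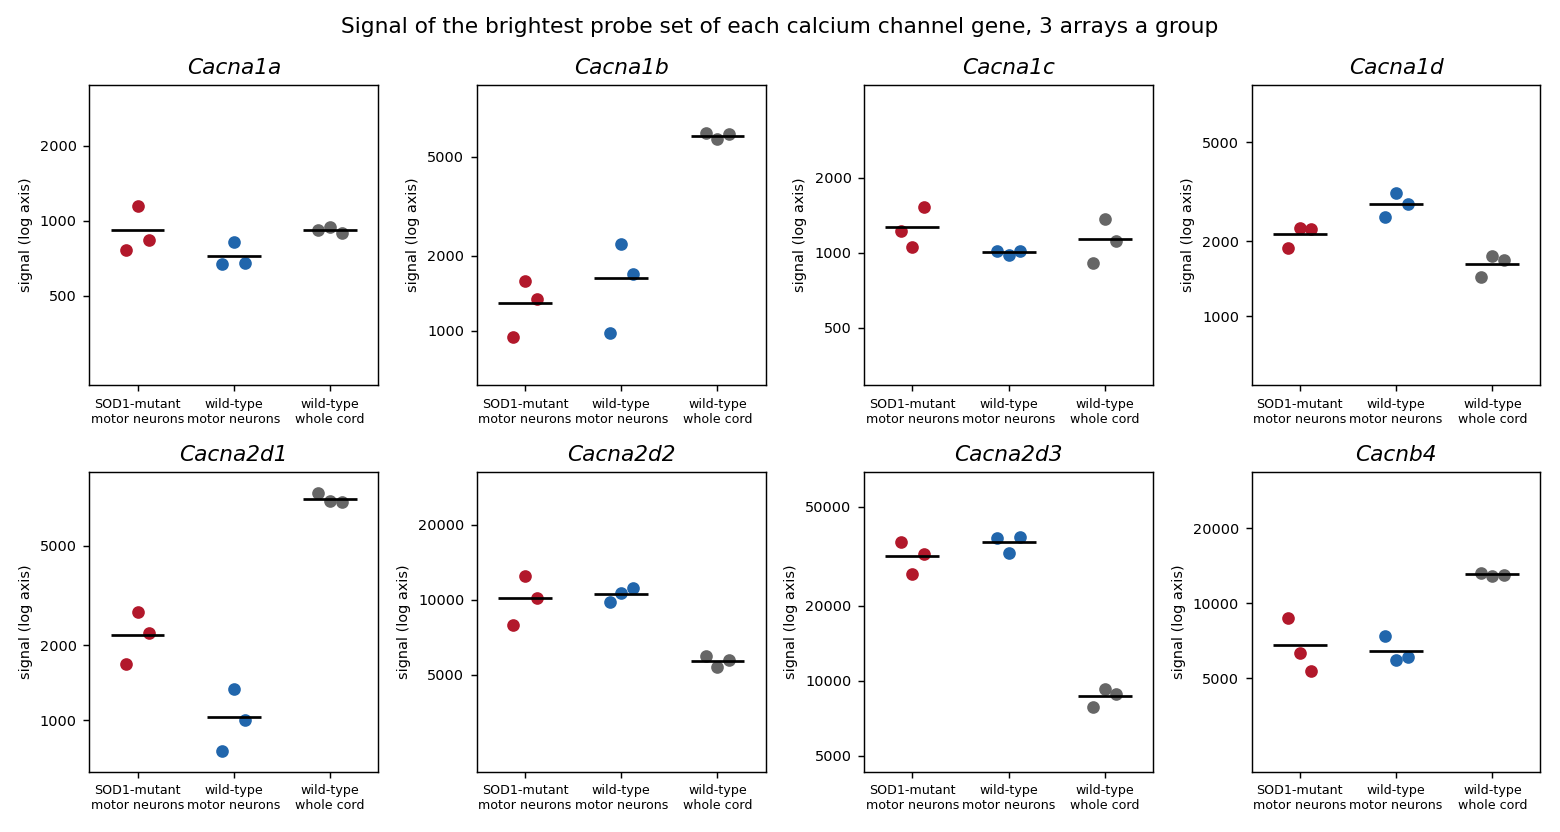
Signal (log axis, each panel covering the same fold range) of the brightest probe set of 8 calcium channel genes on each array, with bars at the means of 3 arrays, for SOD1-mutant motor neurons, wild-type motor neurons and wild-type cord. Cacna2d3 reached 26940 to 37827 on the 6 captured arrays, against 7890 to 9272 in cord, while Cacna2d1 reached 755 to 2708 on captured arrays, against 7472 to 8162 in cord.

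The promoters of 3 genes are shown because these genes differed between motor neurons and cord in opposite directions, Cacna2d3 higher and Cacna2d1 and Cacna1b lower in motor neurons, under every alternative run. Each is the 250 bases before the RefSeq start of the gene, on the gene's own strand in the build GRCm38.p6, with GC boxes in capitals. A GC box was searched as GGGCGG on either strand (CCGCCC on the other), with overlapping matches counted.
Cacna2d3, chr14:29721865-29722114, minus strand: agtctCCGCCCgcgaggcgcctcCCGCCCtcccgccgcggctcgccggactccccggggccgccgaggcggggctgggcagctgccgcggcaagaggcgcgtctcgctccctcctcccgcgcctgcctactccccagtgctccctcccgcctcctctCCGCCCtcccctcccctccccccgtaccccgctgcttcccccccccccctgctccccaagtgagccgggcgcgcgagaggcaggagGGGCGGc
Cacna2d1, chr5:15934441-15934690, plus strand: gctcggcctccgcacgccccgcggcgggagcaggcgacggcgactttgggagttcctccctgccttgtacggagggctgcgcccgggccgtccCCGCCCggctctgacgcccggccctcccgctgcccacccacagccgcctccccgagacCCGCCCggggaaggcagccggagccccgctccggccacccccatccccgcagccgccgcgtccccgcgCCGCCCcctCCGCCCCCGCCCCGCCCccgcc
Cacna1b, chr2:24763153-24763402, minus strand: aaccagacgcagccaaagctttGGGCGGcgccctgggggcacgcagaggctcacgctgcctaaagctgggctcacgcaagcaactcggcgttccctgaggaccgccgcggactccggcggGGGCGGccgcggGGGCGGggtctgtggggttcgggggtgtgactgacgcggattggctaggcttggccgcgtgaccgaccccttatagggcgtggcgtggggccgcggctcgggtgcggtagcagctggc
The stretch before Cacna2d3 held 4 GC boxes and that before Cacna2d1 held 6, with 80.0% and 82.4% G and C, so the promoters of the alpha2delta genes that moved in opposite directions share this composition. The stretch before Cacna1b held 3 boxes at 72.0% G and C. RefSeq windows of 300 bases, which also take in the 50 bases after the start, were found for 8 of the 9 genes, 14 windows in all. These are not the 8 genes measured on the arrays, since Cacna1a had no window and Cacnb3 is included. A GC box lay in 9 of these 14, against 35.66% of all 32851 windows. G and C made up 40.33% to 87.33% of the bases in these 14, against a median of 52.67% over all windows. A high share was not particular to the 2 alpha2delta genes above, since the window of Cacna2d2 held 75.67% and 1 of Cacna1c 81.33%. The other motifs searched were TATAAA (in 1 of 14 windows, against 13.62% of all), CCAAT (5, against 37.41%), TGACG (3, against 20.81%) and CACGTG (0, against 7.15%), each on both strands. A match is a description of the letters and shows no binding.

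Among the pore subunits, Cacna1b was lower in captured cells at every probe set. Cacna1b, the pore of the N-type channel, had signals of 945, 1589 and 1338 in SOD1-mutant motor neurons, 977, 2230 and 1683 in wild-type motor neurons and 6220, 5874 and 6137 in cord at the probe set 1436602_x_at. Every captured array lay well below every cord array, and the captured groups overlapped. The log2 change in wild-type motor neurons against cord was -1.96 ± 0.26 (SE, n = 3 arrays a group, adjusted p = 1.86e-04), and -1.06 after centring on the array medians. The other tested Cacna1b probe sets fell as well, 1460608_at by 1.83 and 1439612_at by 1.44 on the log2 scale. The remaining probe set, 1425812_a_at, was too dim to be tested. It had signals of 26 to 93 in SOD1-mutant motor neurons and 16 to 51 in wild-type motor neurons, all below background, against 970 to 1162 in cord. That makes it at least 5.68-fold lower in SOD1-mutant motor neurons than in cord, and at least 7.72-fold lower in wild-type motor neurons. For Cacna1b, then, all 4 probe sets were lower on every captured array than on any cord array.

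Cacna1a, the pore of the P/Q-type channel of the neuromuscular junction, gave no single answer. Its brightest probe set, 1450510_a_at, had signals of 767, 1151 and 838 in SOD1-mutant motor neurons, 669, 819 and 676 in wild-type motor neurons and 917, 948 and 896 in cord. Wild-type motor neurons lay below cord on every array, but the log2 change of -0.35 ± 0.20 (SE, n = 3) had an adjusted p of 0.159, with an interval from -0.81 to 0.11. It was 0.56 after quantile normalization and 0.56 after centring, both past the threshold, so its direction depends on the scaling. The probe set 1430408_at fell by 1.46 (SE 0.36, adjusted p = 0.00674), with signals of 230.0 to 626 in wild-type motor neurons against 890.4 to 1137 in cord. That call was lost under both scalings, at log2 changes of -0.53 and -0.55. The probe set 1459996_at had a change of 0.44 (SE 0.40, adjusted p = 0.359). The remaining one, 1444455_at, was above background on 1 of the 9 arrays.

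Of the L-type pores, Cacna1d was higher in wild-type motor neurons, and Cacna1c did not pass at its brightest probe set. Cacna1d, whose channel opens at comparatively negative voltages, had signals of 1872, 2268 and 2246 in SOD1-mutant motor neurons, 2494, 3136 and 2831 in wild-type motor neurons and 1431, 1748 and 1675 in cord at 1427974_s_at. The 3 groups did not overlap, and their order was wild-type motor neurons, SOD1-mutant motor neurons, cord. Wild-type motor neurons were higher than cord by 0.79 ± 0.15 (log2, SE, n = 3, adjusted p = 0.00164), and by 1.70 after centring. The suffix of this probe set marks probes shared by several transcripts. The gene's other probe set, 1428051_a_at, was too dim to be tested and was below background on 4 of the 6 captured arrays. It was above background on all 3 cord arrays, with a mean signal of 241 there. Its means were 78 in wild-type and 148 in SOD1-mutant motor neurons, the other direction, though the arrays overlapped. The rise of Cacna1d thus rests on 1 probe set. Cacna1c, the L-type pore that also serves heart and smooth muscle, had signals of 1218, 1055 and 1518 in SOD1-mutant motor neurons, 1011, 976 and 1017 in wild-type motor neurons and 911, 1362 and 1113 in cord at 1435730_at. Wild-type motor neurons and cord overlapped, with a log2 change of -0.15 ± 0.20 (SE, n = 3, adjusted p = 0.533) that became 0.69 and 0.76 under the other scalings, both past the threshold. Its other probe set, 1421297_a_at, fell by 0.84 (adjusted p = 0.0118), but this call was lost without 1 cord array (adjusted p = 0.0581), and under both other scalings the change was 0.067.

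The alpha2delta subunits, which are extracellular and, in the case of alpha2delta-1 and alpha2delta-2, bind the drug gabapentin, went both ways. Cacna2d3 had signals of 35968, 26940 and 32315 in SOD1-mutant motor neurons, 37497, 32716 and 37827 in wild-type motor neurons and 7890, 9272 and 8845 in cord at its only probe set, 1419225_at. Both captured groups lay far above cord, without overlap, and overlapped each other. The log2 change in wild-type motor neurons against cord was 2.05 ± 0.10 (SE, n = 3, adjusted p = 5.45e-07), and between 1.92 and 2.96 under every alternative run. Cacna2d2 had signals of 7937, 12393 and 10183 in SOD1-mutant motor neurons, 9825, 10662 and 11165 in wild-type motor neurons and 5970, 5369 and 5724 in cord at 1450754_at. Again both captured groups lay above cord, here by less, with a wild-type change of 0.89 ± 0.09 (SE, n = 3, adjusted p = 4.84e-05). The dim second probe set of Cacna2d2, 1451955_a_at, had a change of -1.02 ± 0.52 (adjusted p = 0.113). The mean of both probe sets then gave -0.068, so the rise of Cacna2d2 rests on its brightest probe set. The last, 1426185_at, was below background on all 9 arrays.

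Cacna2d1 went the other way. Its brightest probe set, 1433643_at, had signals of 1674, 2708 and 2233 in SOD1-mutant motor neurons, 755, 1337 and 997 in wild-type motor neurons and 8162, 7588 and 7472 in cord. The 3 groups did not overlap, and their order was cord, SOD1-mutant motor neurons, wild-type motor neurons. Wild-type motor neurons were lower than cord by a log2 change of -2.92 ± 0.20 (SE, n = 3, adjusted p = 3.31e-06), past the threshold in all 17 alternatives, where it lay between -3.13 and -1.31. Of its dimmer probe sets, 1449999_a_at fell by 1.36 (SE 0.42, adjusted p = 0.0185). It was above background on 2 of 3 wild-type motor neuron arrays, and it passed in 10 of 15 alternatives. The call was lost after quantile normalization (-0.55, adjusted p = 0.307), after centring (-0.46, 0.375), with all 9 arrays in 1 fit (0.0632) and without the first (0.0905) or the third cord array (0.067). The probe set 1440397_at had a change of 0.36 ± 0.39 (adjusted p = 0.441). Of the untested probe sets, 1441608_at was above background on 1 array of each group, and 1425861_x_at on 0 SOD1-mutant motor neuron arrays, 1 wild-type one and 2 of cord.

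Cacnb4 encodes an intracellular beta subunit, and its loss causes ataxia and seizures in mice. It had 3 tested probe sets that differed in size. The brightest, 1436912_at, had signals of 8703, 6311 and 5358 in SOD1-mutant motor neurons, 7364, 5929 and 6077 in wild-type motor neurons and 13279.9, 12907 and 13028 in cord. Both captured groups lay below cord on every array, with a wild-type change of -1.02 ± 0.10 (SE, n = 3, adjusted p = 3.63e-05). After centring it was -0.11 (adjusted p = 0.500), so this call does not hold under that scaling. The probe set 1452089_at fell by 0.62 (adjusted p = 0.00771), with 0.29 after centring, and 1428928_at had a change of -0.13 (adjusted p = 0.330).

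**Figure D2:**
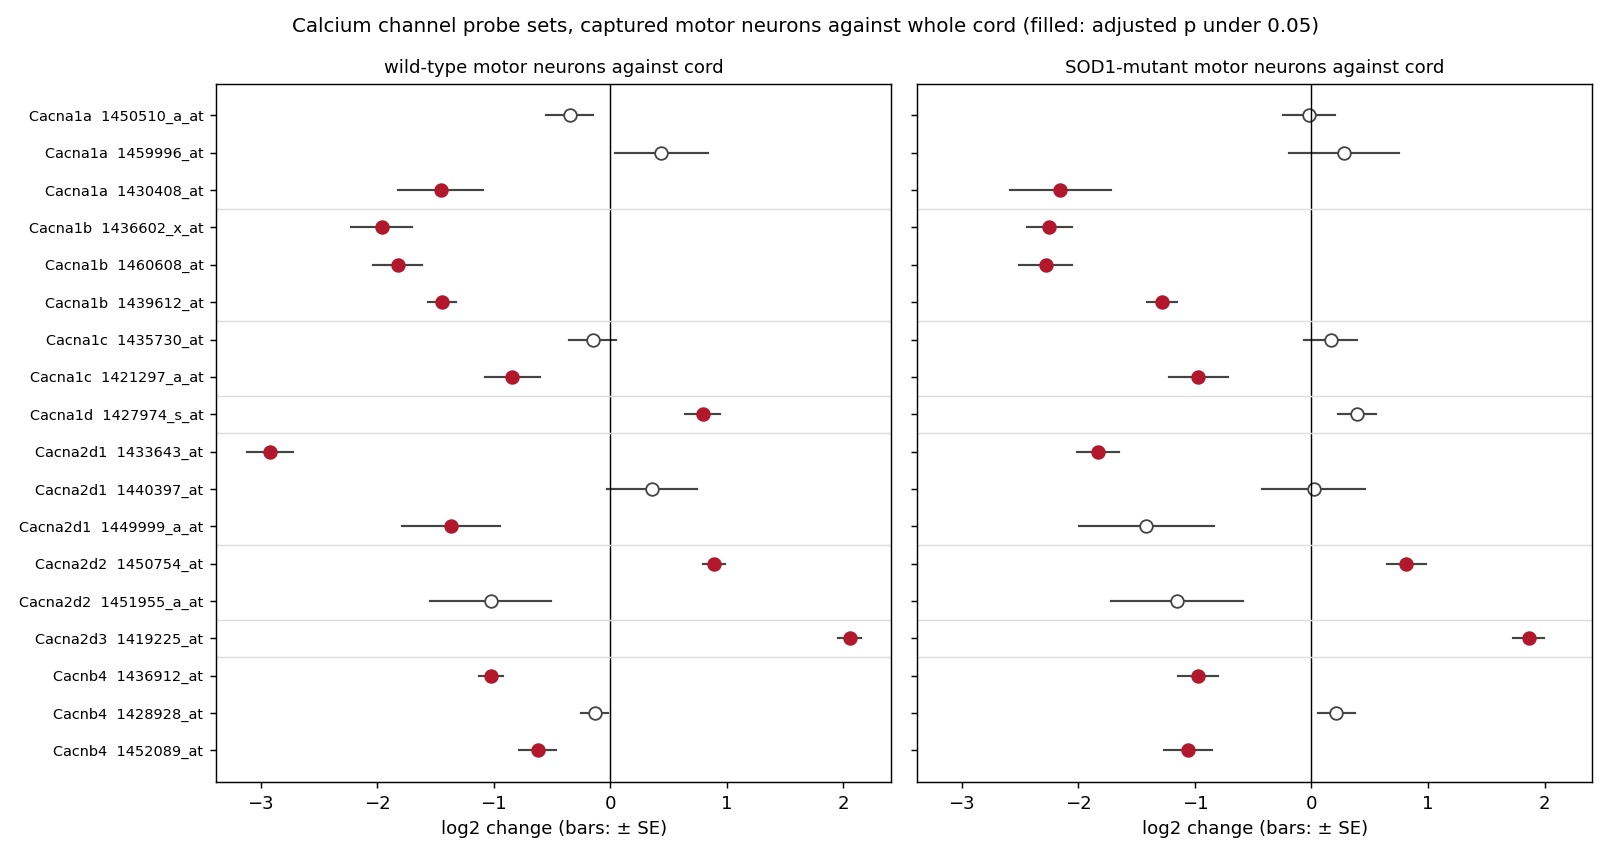
Log2 change of the 18 tested calcium channel probe sets, wild-type motor neurons against cord at left and SOD1-mutant motor neurons against the same cord arrays at right (bars ± SE, filled where the adjusted p was under 0.05). Of the 18, 3 were higher and 9 lower in the left panel and 2 higher and 8 lower in the right one, against 8 and 4, and 6 and 5, after centring on array medians. Over all 27022 probe sets, 24.0% were higher and 41.5% lower at left, and 21.9% and 40.2% at right. After centring 12942 were higher and 5269 lower at left, and 11599 and 5157 at right.

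The scaling matters for direction here, since the median of all probe sets was -0.35 under the authors' scaling, 0.13 after quantile normalization and 0.56 after centring. Over all probe sets tested, 6494 were higher and 11206 lower under the authors' scaling, 9647 and 7691 after quantile normalization, and 12942 and 5269 after centring. Cacna2d3, Cacna2d2 and Cacna1d were higher and Cacna2d1 and Cacna1b lower in wild-type motor neurons under all 3 scalings, past the threshold each time.

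**Figure D3:**
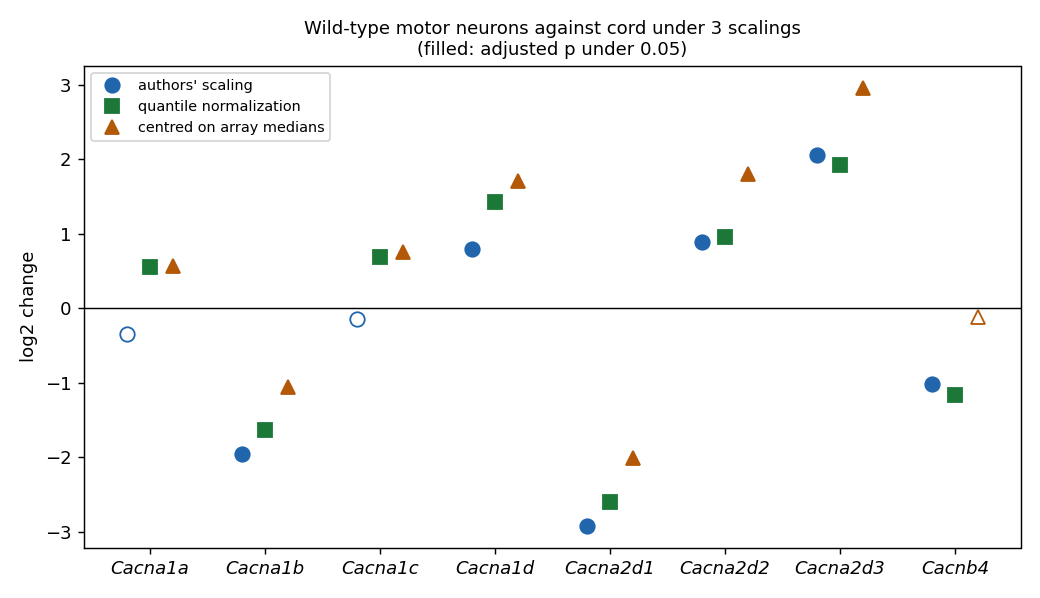
Log2 change of the brightest probe set of each gene, wild-type motor neurons against cord, under 3 scalings (filled where the adjusted p was under 0.05). Cacna1a and Cacna1c lie below 0 under the authors' scaling and above 0 under the others, and Cacnb4 loses its call after centring, while the remaining 5 genes keep direction and call.

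Motor neurons of SOD1-mutant mice were then compared with those of wild-type mice. None of the 18 channel probe sets passed limma's adjusted p of 0.05, and 1 had an unadjusted p under 0.05. Over all probe sets tested 0.222% passed (0.152% higher and 0.0703% lower), and 15.2% had an unadjusted p under 0.05. The arrays of the 2 genotypes did not overlap at 4 of the 18 (3 higher and 1 lower), against 22.3% of all probe sets (10.5% higher and 11.7% lower), so the channel genes did not stand out from the background. The median log2 change was -0.13 over the 18 and -0.0073 over all.

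Cacna2d1 was the probe set with the lowest p. The arrays given above put every SOD1-mutant array above every wild-type one, with a log2 change of 1.09 ± 0.28 (SE, n = 3, interval 0.48 to 1.71, unadjusted p = 0.00258, adjusted p = 0.134). It passed with all 9 arrays in 1 fit (adjusted p = 0.0253), with array weights (2.13e-05) and with the replicate number as a block (0.0424), but in none of the other 14 alternatives. The gene's other tested probe sets had changes of -0.34 ± 0.41 and -0.05 ± 0.70, and the mean over the gene's probe sets was 0.23 (adjusted p = 0.772). No marker gene passed between the genotypes, with 0 higher and 0 lower in every list. The log2 change was above 0 at 6 of 7 astrocyte, 6 of 9 microglial, 5 of 7 vessel and meninges, 6 of 9 oligodendrocyte, 4 of 6 inhibitory, 6 of 6 excitatory and dorsal, and 3 of 11 motor neuron markers, so members went both ways in every list but the excitatory and dorsal one. Summed signals weigh the brightest members most. The astrocyte markers summed to 150518 to 158131 in SOD1-mutant motor neurons, with 7 of 7 above background, and to 132947 to 145085 in wild-type motor neurons, with 6 or 7 of 7. The microglial markers summed to 5007 to 5787, with 5 to 7 of 10 above background, against 3548 to 4443 in wild-type motor neurons, with 5 or 6 of 10. For vessels and meninges the sums were 3088 to 3972 in SOD1-mutant motor neurons, with 5 to 7 of 8 above background, and 2378 to 3082 in wild-type motor neurons, with 5 of 8. Those of the oligodendrocyte markers were 315346 to 337918 in SOD1-mutant motor neurons and 274789.9 to 285919 in wild-type motor neurons, with 9 of 9 above background in both. The motor neuron markers summed to 290350.4 to 306506 in SOD1-mutant motor neurons and 318079.9 to 329949.9 in wild-type motor neurons. The first 4 sums were higher and the last lower on every SOD1-mutant array. Those of inhibitory neurons, at 27859 to 48264 in SOD1-mutant and 29701 to 31447 in wild-type motor neurons, and of excitatory and dorsal neurons, at 2405 to 9727 and 2678 to 3277, overlapped. The part of these other cells in the Cacna2d1 difference was not tested.

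For the other genes the interval shows what 3 arrays against 3 could bound. Cacna2d3 had a change of -0.19, with an interval from -0.50 to 0.12, and Cacna2d2 one of -0.07, from -0.47 to 0.32. Cacna1d had a change of -0.40, from -0.84 to 0.03 (adjusted p = 0.361), with every SOD1-mutant array below every wild-type one. Cacna1c, at 0.31, from -0.22 to 0.85, had every SOD1-mutant array above every wild-type one, as did the Cacna1b probe set 1439612_at, at 0.16, from -0.29 to 0.62. For Cacna1b's brightest probe set the change was -0.29, from -1.01 to 0.44. Cacna1a had 0.32, from -0.30 to 0.95, and Cacnb4 had 0.05, from -0.39 to 0.49. Changes of over 1 on the log2 scale in either direction lie outside the intervals of the brightest probe sets of Cacna2d3, Cacna2d2, Cacna1d, Cacna1c, Cacna1a and Cacnb4. Dimmer probe sets of these genes had wider intervals, such as that from -1.95 to 0.55 at Cacna1a 1430408_at. The spread between arrays was wider at these genes in SOD1-mutant motor neurons (median SD of log2 values 0.35 over the 18 probe sets, against 0.33 over all tested) than in wild-type motor neurons (0.19, against 0.27) and in cord (0.12, against 0.13), and this difference in spread was not tested.

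**Figure D4:**
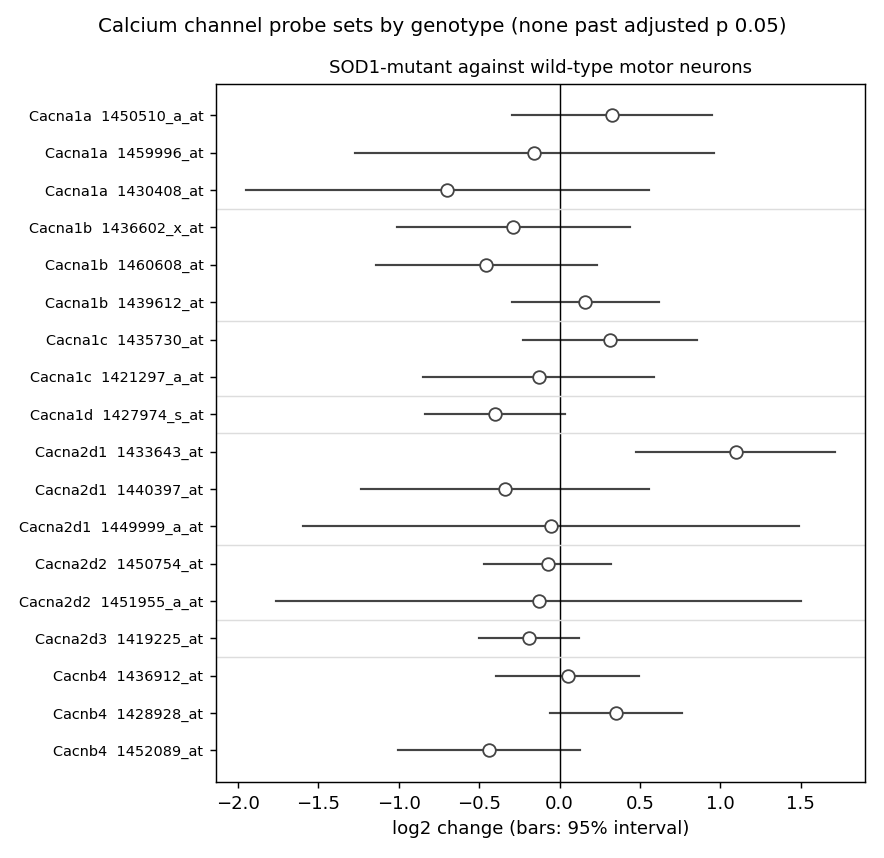
Log2 change of the 18 tested calcium channel probe sets, SOD1-mutant against wild-type motor neurons, with 95% intervals. Cacna2d1 1433643_at, at 1.09 (0.48 to 1.71), is the only one whose unadjusted interval leaves out 0, and no probe set passed after adjustment.

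SOD1-mutant motor neurons were also set against cord, with the same cord arrays as the first comparison and the same mutant arrays as the second. Of the 18 probe sets, 2 were higher, 8 lower and 8 not past the threshold, against 62.1% of all probe sets that passed (21.9% higher and 40.2% lower). After centring 6 of the 18 were higher and 5 lower, beside 11599 higher and 5157 lower of all 27022. The arrays did not overlap at 12 (3 higher and 9 lower), against 70.0% of all probe sets (25.1% higher and 44.9% lower). Cacna2d3 had a log2 change of 1.86 ± 0.13 (SE, n = 3, adjusted p = 9.47e-06) and Cacna2d2 one of 0.81 ± 0.16 (0.00274). Cacna2d1 was lower by a change of -1.83 ± 0.18 (adjusted p = 4.93e-05), against -2.92 in wild-type motor neurons. Cacna1b had -2.25 ± 0.20 (2.53e-05) and Cacnb4 -0.97 ± 0.17 (0.0013). Cacnb4 and Cacna2d2 each passed in 16 of 17 alternatives. The change of Cacnb4 lay between -1.24 and -0.13 in these 17, and that of Cacna2d2 between -0.17 and 1.66. Cacna1d did not pass, at 0.39 ± 0.16 (adjusted p = 0.0669), though its arrays lay above cord, and it passed in 5 of 17 alternatives, where its change lay between 0.31 and 1.24. Among these were quantile normalization (1.11), centring (1.24) and the fit without the first SOD1-mutant array (0.48, adjusted p = 0.0286). Cacna1a had -0.02 ± 0.22 and Cacna1c 0.16 ± 0.23, neither past the threshold. Under quantile normalization and centring both passed, Cacna1a at 0.87 and 0.82 and Cacna1c at 0.99 and 1.01, and averaging its probe sets gave -0.40 for Cacna1c.

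Other calcium channel genes were followed in 3 lists, with 1 probe set a gene. The first held 17 further channel subunits, of which 11 were tested. In wild-type motor neurons against cord 3 were higher and 4 lower, against 4 and 3 after quantile normalization and 6 and 3 after centring (median log2 change -0.03, 0.36 and 0.88, beside -0.35, 0.13 and 0.56 over all probe sets). Over all probe sets 24.0% were higher and 41.5% lower under the authors' scaling, so the 7 of 11 that passed are near the background of 65.5%. That background was 9647 higher and 7691 lower of 27022 after quantile normalization, and 12942 and 5269 after centring. Cacna1e, the pore of the R-type channel, had signals of 290.3, 541 and 430.2 in SOD1-mutant motor neurons, 1307, 1281 and 1454 in wild-type motor neurons and 5286, 5721 and 5651 in cord. The 3 groups did not overlap. Wild-type motor neurons were lower than cord by a log2 change of -2.03 ± 0.12 (SE, n = 3, adjusted p = 1.70e-06). SOD1-mutant motor neurons had a change of -1.67 ± 0.30 against wild-type ones, with an adjusted p of 0.0632. The gamma subunit genes, most of whose products are now known as auxiliary subunits of AMPA glutamate receptors, went both ways. Cacng5 rose by 1.93 (adjusted p = 7.70e-06), with signals of 5002 to 6632 in wild-type motor neurons against 1466 to 1747 in cord. Cacng7 fell by 3.24 (adjusted p = 1.22e-06) and Cacng4 by 2.14 (adjusted p = 6.88e-04).

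Of 27 genes for proteins that bind or regulate the channels, 20 were tested, and 3 were higher and 12 lower in wild-type motor neurons than in cord, against 5 and 9 after quantile normalization and 9 and 6 after centring (median log2 change -0.84, -0.41 and 0.07, beside the same -0.35, 0.13 and 0.56). The background is again 65.5% under the authors' scaling, with 24.0% higher and 41.5% lower. Of all 27022 probe sets, 9647 were higher and 7691 lower after quantile normalization, and 12942 and 5269 after centring. Gem, a small GTPase that binds beta subunits and inhibits channel currents, had signals of 4622, 4791 and 3982 in SOD1-mutant motor neurons, 5202, 4239.6 and 3553 in wild-type motor neurons and 349.8, 325 and 371 in cord. Both captured groups lay far above cord. The change in wild-type motor neurons was 3.54 ± 0.19 (SE, n = 3, adjusted p = 1.11e-06), 11.7-fold. Rims3, a short member of the RIM family of presynaptic active zone proteins, fell by 3.40 (adjusted p = 7.43e-07). The adaptor gene Stac2, whose product binds L-type channels, fell by 1.91 (adjusted p = 4.81e-06), and Akap5, a protein kinase A anchor of L-type channels, fell by 1.88 (adjusted p = 0.00158). The probe set of Akap5 was above background on 2 of 3 wild-type motor neuron arrays, its change was -1.05 and -0.97 under the other scalings, and the gene's other tested probe set had 0.0036 (adjusted p = 0.994). The other tested probe set of Rims3 had 0.14 (adjusted p = 0.872). The calcium release channels of the endoplasmic reticulum were followed with 6 genes, of which 4 were tested, 3 higher and 1 lower, beside the same background. The ryanodine receptor genes Ryr3 and Ryr2 rose by 1.47 (adjusted p = 1.18e-05) and 0.58 (4.38e-04). The other tested probe sets of Ryr3 had changes of -0.83 (adjusted p = 0.376) and -3.64 (0.00103), so its probe sets disagree. Of the inositol trisphosphate receptor genes, Itpr3 rose by 2.16 (adjusted p = 1.01e-04) and Itpr2 fell by 2.05 (1.30e-04), while its other tested probe sets had -1.89 and -2.82, both past the threshold, and -0.83 (0.375), not past it. These genes are named for the size of their change, and at the probe set that stands for it each kept its direction and call in wild-type motor neurons against cord under both other scalings. Sizes moved, and after centring the log2 change was -1.12 at Cacna1e, -1.23 at Cacng4, -1.005 at Stac2, -1.15 at Itpr2, 2.38 at Ryr3 and 1.49 at Ryr2. None of the 35 tested genes of these lists passed limma's adjusted p between SOD1-mutant and wild-type motor neurons. In SOD1-mutant motor neurons against cord, 2 were higher and 3 lower in the first list, 3 and 11 in the second, and 3 and 1 in the third, beside 62.1% of all probe sets that passed (21.9% higher and 40.2% lower). After centring these were 5 and 3, 9 and 4, and 3 and 0, beside 11599 higher and 5157 lower of all 27022 probe sets.

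**Figure D5:**
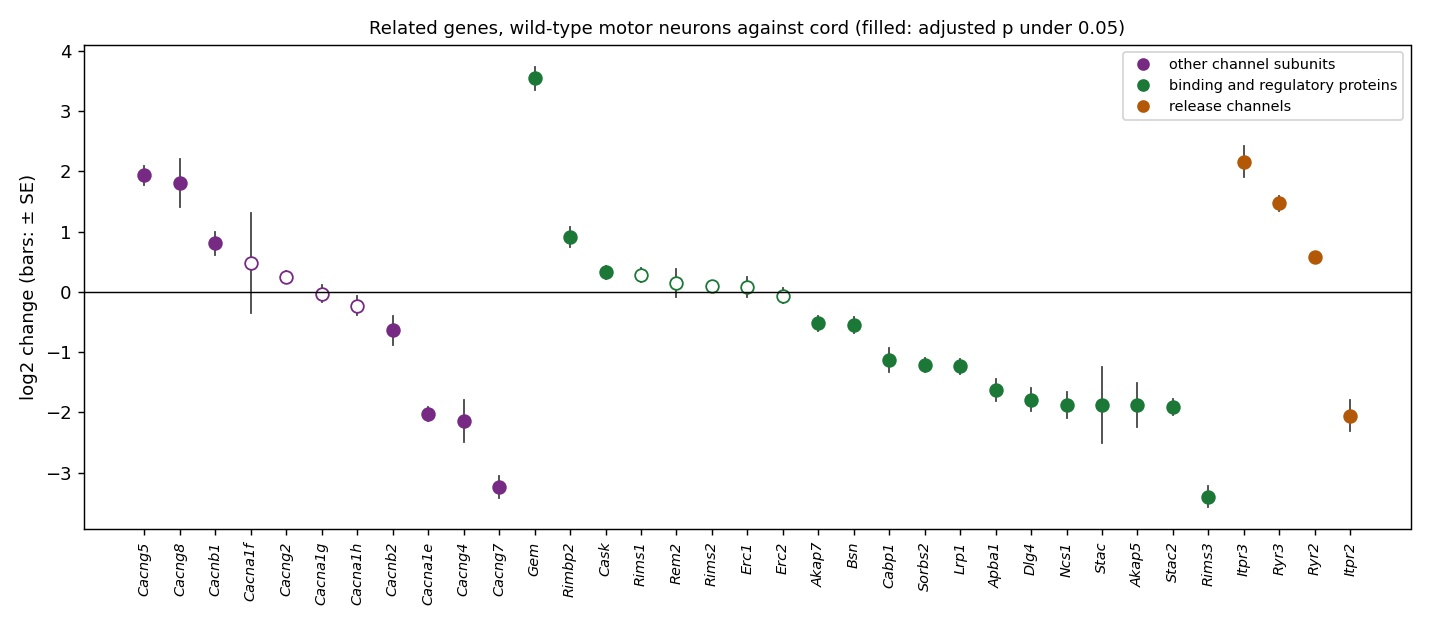
Log2 change of the 35 tested genes of 3 lists, wild-type motor neurons against cord (bars ± SE, filled where the adjusted p was under 0.05), under the authors' scaling. Gem (3.54) and Itpr3 (2.16) stand at the top, Rims3 (-3.40) and Cacng7 (-3.24) at the bottom.

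For each channel gene, the 1 other gene whose log2 values over the 9 arrays correlated most closely was looked up. The 9 arrays fall into groups that share a tissue and a 3′ bias, so these correlations mostly describe the group means and carry no test. The closest were Dffa for Cacna2d3 (Pearson r = 0.999), Igtp for Cacna2d1 (0.998), Myo1d for Cacna1b (0.998), Sema6d for Cacnb4 (0.995) and Anxa4 for Cacna2d2 (0.995). For Cacna1d it was Wdr54 (0.988), for Cacna1a Ing3 (0.969) and for Cacna1c Ythdf1 (0.857). Igtp, for example, had mean signals of 273 in SOD1-mutant motor neurons, 91.0 in wild-type motor neurons and 1357 in cord. It was picked for its likeness to Cacna2d1, so the shared order is no separate result. Its wild-type motor neuron mean lies below the background of those arrays, 131 to 147. The means of Sema6d in SOD1-mutant (116) and wild-type motor neurons (81.9) lie below background too.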

How the data were processed

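The members and gene lists were chosen with earlier results of these data known. The deposited values were the authors' linear signal intensities of 9 single-channel arrays, with a mean of 2500 after trimming 2% of probe sets from each end. The amplification of RNA, its labelling and the software behind the signals were not given in the sources used here. Groups came from the sample descriptions and replicate numbers from the titles. The arrays hold no read depth, and 3 arrays a group limit the precision.

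There were 45101 probe sets, 64 of them controls, which were not tested. Values entered as log2 after adding 20.3, which is the 10th percentile of the deposited values. The filter kept the 27022 probe sets with a mean log2 value over the 3 groups past the 40th percentile. The scale of this mean was settled after results had been seen, and a mean of linear signals is given as an alternative. The annotation gave 1 symbol to 34945 probe sets, several to 932 and none to 9160. Each comparison was fitted on its 6 arrays by limma 3.58.1 under R 4.3.3, using lmFit and a trended eBayes. Tests were two-sided, p-values were adjusted over all tested probe sets by Benjamini-Hochberg, and the threshold was 0.05. The procedure was tested on simulated data. Background was each array's 95th percentile over 27 Bacillus subtilis control probe sets, whose highest value was 332. A bound ("at least N-fold") compared the brighter group's mean log2 value with that of the dim group's arrays, each at the higher of its own signal and its background.

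Named were all members and, from each list, up to 4 passing genes with the largest change in a comparison. The 1 gene of closest pattern per member, the Gapdh and Actb controls and Sod1 were named too. Marker genes were given as sums and counts, with a few glial ones named beside their sums. Promoters came from RefSeq, GRCm38.p6, and figures from matplotlib 3.10.9 in Python 3.11.15. The alternatives were quantile normalization, centring, other filters and pseudocounts, values raised to background, array weights, eBayes without a trend, a joint fit of all 9 arrays, the replicate block, averaging each gene's probe sets and each array left out. Outlying values were not tested for, since each group held 3 arrays.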

Additional observations from a re-analysis of the deposited data

How the results depend on the processing

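Among the wild-type motor neuron and cord results, Cacna1b, Cacna1d, Cacna2d1 and Cacna2d3 kept direction and call in all 17 alternatives. Averaging took tested probe sets only, of which Cacna1d and Cacna2d3 had 1 each. With 3 arrays a group, dim probe sets near background had the widest errors. The cause of the changes below was not tested.

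In wild-type motor neurons against cord, the channel probe sets higher and lower were 3 and 9, against 7 and 5 after quantile normalization and 8 and 4 after centring on array medians. All probe sets there were 6494 and 11206, against 9647 and 7691 after quantile normalization and 12942 and 5269 after centring. Values of the opposite sign under these 2 scalings were 0.56 and 0.56 for Cacna1a, 0.69 and 0.76 for Cacna1c and 0.067 and 0.067 for Cacna1c 1421297_a_at, and after centring 0.29 for Cacnb4 1452089_at. Averaging a gene's probe sets gave -0.068 for Cacna2d2. In SOD1-mutant motor neurons against cord, the probe sets higher were 2, against 5 after quantile normalization, 6 after centring and 4 with array weights, and those lower were 8, against 5 after centring. Cacna1a turned to 0.87 and 0.82 under the 2 scalings and ranged from -0.19 to 0.093 with an array left out. The mean of probe sets turned Cacna1c to -0.40 and Cacna2d2 to -0.17. All probe sets higher and lower in this comparison were 5925 and 10859, against 9001 and 7369 after quantile normalization and 11599 and 5157 after centring, with a median change of -0.37, 0.12 and 0.48.

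In SOD1-mutant against wild-type motor neurons, 60 probe sets passed, against 32 after quantile normalization, 20 after centring, 1184 with all 9 arrays in 1 fit, 3 without the intensity trend and 13777 with array weights. The weights rested on 1 wild-type array of weight 10.8 and 1 SOD1-mutant array of weight 5.47, with the others at 0.28 to 0.43. In wild-type motor neurons against cord the estimate of the weights did not converge. Leaving out each array gave 6 to 71 (11, 13 and 6 without each wild-type array in turn, and 46, 71 and 7 without each SOD1-mutant one). The channel probe sets higher were 1 with all 9 arrays, 2 with array weights and 1 with the replicate block, and those lower were 7 with array weights. Cacnb4 turned to -0.010 after centring, -0.14 with array weights, -0.013 as a mean of probe sets and ranged from -0.14 to 0.21 with an array left out. Cacna2d2 ranged from -0.23 to 0.092 with an array left out, and Cacna1a to -0.18 as a mean of probe sets.

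With the replicate number as a block, 443 probe sets passed in SOD1-mutant against wild-type motor neurons. The labels give no pairing. Same-numbered arrays deviated together at correlations of 0.15, 0.17 and 0.0023 there, and 2 of 3 SOD1-mutant arrays correlated best with their own number. Whether arrays of the same number share more than that number was not tested. The filter on linear means, chosen after seeing the data, gave 3 higher and 10 lower channel probe sets in wild-type motor neurons against cord, 2 and 9 in SOD1-mutant motor neurons against cord, and 0 between the genotypes. Of all 27022 probe sets it gave 6514 higher and 11963 lower, 5951 and 11618, and 34 and 17 in the same order.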
